A study of Mus musculus with 11 samples.

Results

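Neurons build their axons on microtubules of alpha- and beta-tubulin and on neurofilaments, and they move cargo along the microtubules with kinesin motors. The values below follow the genes of this machinery in the trigeminal ganglion, the sensory ganglion of the face, of mouse embryos that lack the transcription factor Brn3a. The genes were chosen by symbol alone: tubulins (Tuba, Tubb), stathmins (Stmn), collapsin response mediator proteins (Dpysl, Crmp1), kinesins (Kif and a digit), symbols that start with Map1, and Nefl, Nefm, Nefh, Ina, Prph, Map2, Mapt, Gap43 and Dcx. A probe set, the group of oligonucleotides that measures 1 transcript, was taken where the platform annotation gave it a single such symbol. This gave 66 of the 13675 annotated genes, read by 124 of 24899 probe sets, 71 on the Affymetrix U74Av2 array and 53 on U74Bv2. Of these, 61 on U74Av2 and 36 on U74Bv2 were bright enough to enter the tests. The prefix Map1 also takes in the light chain 3 genes, which belong to autophagy, and the symbols Map10 and Map11, which are counted but not grouped with the structural proteins.

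Ganglia were collected at embryonic day 13.5 from 3 genotypes: Brn3a knockout (KO), Brn3a heterozygote (HET) and wild-type (WT). Brn3a is encoded by Pou4f1. Each array held total RNA of about 10 to 12 ganglia pooled by genotype. There were 2 KO, 2 HET and 2 WT arrays of the U74Av2 type and 2 KO, 2 HET and 1 WT array of the U74Bv2 type, numbered 1 and 2 in the labels. Per the design text the mutant already has major defects of sensory axon growth at this age, while the period of extensive sensory neuron death has not yet come. The comparison of KO with WT ganglia asks which transcripts differ at that stage. No source used here gives the mouse strain, the construction of the knockout allele or the sex of the embryos, and no label says whether the RNA pools of the 2 array types were the same. A pool holds every cell of the ganglion, so fewer cells of a type and less RNA per cell cannot be told apart in any value below.

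Alpha- and beta-tubulin pair into dimers that polymerise into microtubules. Stathmins bind free dimers, and structural microtubule-associated proteins such as tau (Mapt), MAP2, MAP1B and doublecortin bind and steady the polymer. Neurofilaments set the calibre of axons, and peripherin is the intermediate filament typical of peripheral neurons. Kinesins of the KIF1, KIF3, KIF5, KIF13 and KIF21 families work in axons, dendrites and cilia, while KIF11, KIF20A, KIF22, KIF23 and KIF2C serve the mitotic spindle or cytokinesis.

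The signals are MAS5 intensities on a linear scale. Differences are given as log2 of signal plus a pseudocount, first group minus second, with the standard error of the limma fit, and a call means that the p, adjusted by Benjamini-Hochberg over every probe set tested on that array type, was under 0.05. Precision is limited by how few arrays there were. Pou4f1 was measured on U74Bv2 at 549.8 and 904.3 in KO, 2196.0 and 3570.1 in HET and 3313.1 in WT, a KO minus WT log2 difference of -2.15 ± 0.34 (adjusted p = 0.0245). Both KO arrays lay below all others, and no source used here says whether the probe set lies in the deleted part of the gene. The sensory neuron markers fixed for this work were present: of 13 such genes on U74Av2, the summed signal was 17260 and 13026 in KO, 23223 and 19798 in HET and 20955 and 20049 in WT. Of the 11 tested probe sets of those markers, 1 was called, lower in KO than in WT (Avil), against 0.255% of all probe sets. Their median KO minus WT log2 difference was -0.69, with 3 of the 11 positive. In a limma fit with the array number as a block 3 of the 11 were called lower, Avil, Sncg and Syt1, where 1.74% of all probe sets were called. On U74Bv2 the summed signal of 8 such genes was 14622 and 13578 in KO, 19727 and 20407 in HET and 20417 in WT. Pou4f1, the targeted gene, is itself on the marker list, so its own lower signal is part of that U74Bv2 sum. The Schwann cell and satellite glia markers on U74Av2 summed to 23695 and 20334 in KO, 20307 and 18251 in HET and 16536 and 17722 in WT over 8 genes. Arrays numbered 1 and 2 differed on U74Av2 in the 18S ribosomal RNA controls, whose mean signal was 12803 in KO, 6745 in HET and 5173 in WT on the number 1 arrays, against 974, 518 and 511 on the number 2 arrays.

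Sequences just upstream of the annotated start are shown for 4 genes, since their probe sets carried the largest differences from the other genotypes among the kinesins, the filaments and the microtubule-associated proteins. Each is the 250 bases before the start, 5′ to 3′ on the gene's strand, from RefSeq promoters of build GRCm38.p6. Capitals mark a match, on either strand, to one of 4 motifs: ATTAAT, the core of Brn3-type POU sites, TATAAA, known as the TATA box, GGGCGG, known as the GC box, and TTTGAA, known as the cell cycle homology region. The Kif21a stretch is chr15:91049952-91050201 on the minus strand, the Prph stretch chr15:99054924-99055173 on the plus strand, the Map2 stretch chr1:66175079-66175328 on the plus strand and the Kif15 stretch chr9:122950831-122951080 on the plus strand.
Kif21a promoter: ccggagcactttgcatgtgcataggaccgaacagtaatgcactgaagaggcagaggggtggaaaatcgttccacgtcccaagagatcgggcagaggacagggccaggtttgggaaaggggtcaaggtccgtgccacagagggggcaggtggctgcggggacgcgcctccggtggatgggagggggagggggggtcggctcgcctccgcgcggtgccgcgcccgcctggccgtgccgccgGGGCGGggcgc
Prph promoter: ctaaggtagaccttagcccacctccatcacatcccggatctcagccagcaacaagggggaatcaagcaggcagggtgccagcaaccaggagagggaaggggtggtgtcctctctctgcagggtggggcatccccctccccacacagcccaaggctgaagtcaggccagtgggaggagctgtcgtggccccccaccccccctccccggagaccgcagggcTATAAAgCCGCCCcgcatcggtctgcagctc
Map2 promoter: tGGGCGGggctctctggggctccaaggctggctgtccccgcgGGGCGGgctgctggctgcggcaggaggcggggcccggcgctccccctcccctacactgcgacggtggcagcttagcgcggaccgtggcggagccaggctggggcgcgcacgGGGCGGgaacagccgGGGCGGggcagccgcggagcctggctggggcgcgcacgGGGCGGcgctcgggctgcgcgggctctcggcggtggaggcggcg
Kif15 promoter: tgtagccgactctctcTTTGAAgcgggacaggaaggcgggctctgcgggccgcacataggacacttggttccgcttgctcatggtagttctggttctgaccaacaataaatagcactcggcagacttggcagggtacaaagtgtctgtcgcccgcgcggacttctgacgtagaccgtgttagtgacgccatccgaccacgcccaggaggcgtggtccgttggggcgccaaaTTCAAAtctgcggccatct
The Kif21a stretch held 1 GC box, 11 bases before the start. The Prph stretch held a TATA box 31 bases before the start and a GC box 24 bases before it, and the Map2 stretch held 5 GC boxes. In the Kif15 stretch there were 2 matches to the cell cycle homology region, 234 and 19 bases before the start. RefSeq gave a promoter for 46 of the 66 genes, 52 promoters in all. Of those 52 promoters, 34 held a GC box, 10 a TATA box, 7 a cell cycle homology region and 2 (both of Dcx) the POU core, while 32.7%, 12.4%, 16.0% and 4.39% of all 32851 promoters held these letters. The matches are descriptions of the letters in this window and were not tested against binding.

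Among the motors, a probe set each of the KIF21 family genes Kif21a and Kif21b was lower in KO ganglia. These were the only members called in any comparison of the fit without a block. With KO set against the mean of HET and WT, Kif21a (115486_at) and Kif21b (116921_at) passed on U74Bv2. Of the 36 members tested there 0 were called higher, while 13 had a positive difference. The background was 1.71% of all 7446 tested probe sets called lower, 0.846% called higher and 2.55% called in either direction. KIF21A and KIF21B are kinesins of axons and dendrites that act at microtubule plus ends. The 115486_at signal of Kif21a was 2680.2 and 2398.9 in KO, 4565.0 and 4040.9 in HET and 5061.6 in WT. Both KO arrays lay below every HET and WT array. This was a log2 difference of -0.87 ± 0.16 from HET and WT together, 1.82-fold lower (limma, adjusted p = 0.0259). Against WT alone the difference was -0.98 ± 0.21 and against HET alone -0.75 ± 0.17, with adjusted p of 0.0694 and 0.0747.

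Kif21b (116921_at) had 3219.0 and 2929.8 in KO, 5186.9 and 4841.1 in HET and 5547.9 in WT. Here too the KO arrays did not overlap the others. The log2 difference from HET and WT together was -0.77 ± 0.16, 1.71-fold lower (limma, adjusted p = 0.0403), with -0.84 ± 0.21 against WT and -0.70 ± 0.17 against HET. Both calls were lost without the filter on dim probe sets, with adjusted p of 0.0815 for Kif21a and 0.118 for Kif21b, without the intensity trend (0.0858 and 0.112) and without KO array 2 (0.112 and 0.185). The Kif21b call was also lost without KO array 1 (0.0795).

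Other probe sets of the same genes differed in size. A second Kif21a probe set (117231_at) read 893.0 and 653.3 in KO, 1177.2 and 1220.6 in HET and 1203.6 in WT. Its KO arrays were again the lowest, at a log2 difference of -0.62 ± 0.18 from HET and WT together (adjusted p = 0.155). The dimmest one (105723_at) read 180.3 and 162.9 in KO, 181.9 and 273.8 in HET and 144.4 in WT. Its KO arrays lay above the single WT array and below both HET arrays, so the sign against WT was opposite to that of the other probe sets. The second Kif21b probe set (114821_at) read 495.2 and 512.5 in KO, 376.6 and 458.2 in HET and 525.2 in WT. Its KO arrays lay above both HET arrays and just below the WT array, and its KO minus WT log2 difference was -0.06 ± 0.25. The fall measured by 116921_at was not seen in that probe set.

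**Figure D1:**
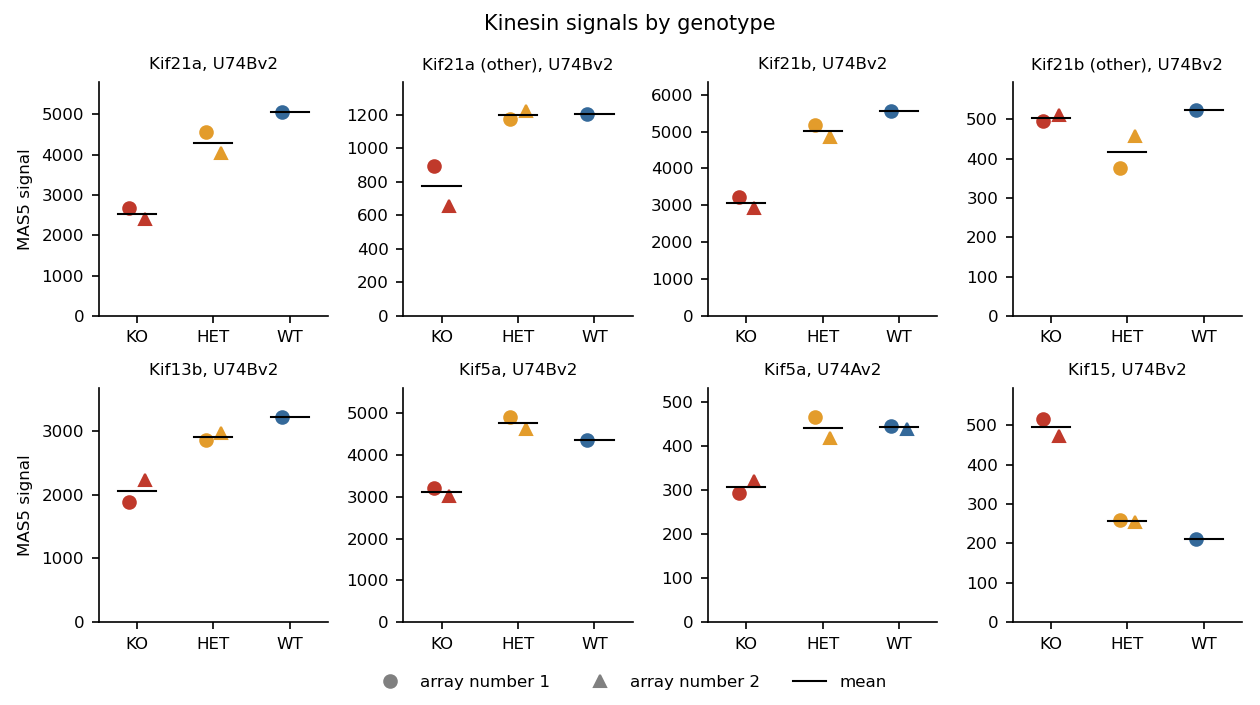
MAS5 signal (linear axis from 0) of 8 kinesin probe sets in KO, HET and WT ganglia; circles are number 1 arrays, triangles number 2 arrays and bars group means, with a single WT array on U74Bv2. KO arrays lie below all others for Kif21a (the 2 brighter probe sets of 3), Kif21b (116921_at), Kif13b and Kif5a, and above all others for Kif15 (164299_f_at).

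KIF5 motors are the conventional kinesins of fast axonal transport, and KIF5A is the neuronal form. Kif5a on U74Bv2 (162987_at) read 3220.6 and 3011.3 in KO, 4908.3 and 4618.8 in HET and 4359.2 in WT. On U74Av2 (96583_s_at) it read 294.1 and 320.9 in KO, 467.1 and 417.8 in HET and 446.7 and 440.3 in WT. On both array types the KO arrays lay below every other array. The KO minus WT log2 difference was -0.48 ± 0.20 on U74Bv2 and -0.47 ± 0.21 on U74Av2. Without a block, neither passed the test against HET and WT together (adjusted p = 0.145 and 0.717). The related Kif5b had KO minus WT differences of -0.43 ± 0.42 on U74Av2 and 0.18 ± 0.22 on U74Bv2, and Kif5c had 0.15 ± 0.30 and 0.09 ± 0.24.

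Kif13b, a KIF13 motor of the kinesin-3 branch, read 1892.4 and 2234.3 in KO, 2851.7 and 2970.2 in HET and 3216.3 in WT. The KO arrays did not overlap the rest, and the KO minus WT log2 difference was -0.63 ± 0.20. Without a block, it did not pass against HET and WT together (-0.56 ± 0.15, adjusted p = 0.131). Kif1a and Kif1b carry synaptic vesicle precursors and mitochondria. Kif1a differed from WT by -0.25 ± 0.23 on U74Av2 and -0.07 ± 0.21 on U74Bv2. The 4 tested U74Bv2 probe sets of Kif1b gave differences between -0.76 ± 0.35 and -0.11 ± 0.23, and the brightest of them (162832_at) read 7482.8 and 7536.9 in KO, 8598.8 and 9541.3 in HET and 8111.9 in WT. Its KO arrays were the lowest, by a small margin. The heterotrimeric kinesin-2 genes Kif3a, Kif3b and Kif3c spanned differences from -0.45 ± 0.26 (Kif3c, U74Av2) to 0.09 ± 0.24 (Kif3b, U74Av2), and Kif3a (115929_at) was level at 2207.1 and 2332.8 in KO, 2287.5 and 2347.9 in HET and 2228.8 in WT.

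Kif2a, a microtubule depolymerase of growing neurons, read 632.5 and 672.1 in KO, 610.3 and 734.6 in HET and 520.7 and 779.4 in WT, with the groups overlapping (log2 difference 0.03 ± 0.26). The kinesins outside the 5 named mitotic ones include others with roles in cell division, among them Kif4 on U74Av2 and Kif15 on U74Bv2. Of this mixed group, 11 probe sets were tested on U74Av2, with 5 positive and 6 negative KO minus WT differences. Their median was -0.25, against 0.02 over all probe sets. Without WT array 2 that median was 0.02. On U74Bv2 24 were tested, with 9 positive and 15 negative differences and a median of -0.07, against 0.02 over all. In KO against WT 0 were called on either array type. At an unadjusted p under 0.05 there were 0 on U74Av2, and on U74Bv2 1 was higher and 5 were lower, where the background in either direction was 5.11% and 11.2% of all probe sets.

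The 5 named mitotic kinesins were measured on U74Av2 only, by 6 probe sets of which 5 were tested. All 5 had a positive KO minus WT log2 difference, from 0.03 ± 0.25 (Kif22) to 0.43 ± 0.25 (Kif20a, 161856_f_at), with a median of 0.36. In KO against HET the 5 differences ran from 0.26 to 0.56. In KO against WT, KO against HET and KO against both, 0 were called and 0 had an unadjusted p under 0.05 (limma), so none passed the test.

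Kif11, the motor that pushes spindle poles apart, read 324.3 and 296.1 in KO, 205.3 and 220.1 in HET and 234.7 and 225.8 in WT. Kif23, a motor of the central spindle in cytokinesis, read 374.9 and 394.3 in KO, 261.0 and 298.6 in HET and 248.5 and 301.8 in WT. In both genes the KO arrays lay above all HET and WT arrays. Kif20a, another cytokinesis motor, read 292.7 and 328.6 in KO, 186.9 and 203.2 in HET and 245.9 and 190.9 in WT, again with the KO arrays on top. Kif2c, a depolymerase at centromeres, read 235.5 and 228.3 in KO, 182.5 and 163.9 in HET and 193.1 and 170.5 in WT. Here the KO arrays were also the highest. Kif22, which moves chromosome arms, read 1015.9 and 1098.0 in KO, 860.5 and 889.9 in HET and 1264.6 and 841.8 in WT, so the KO arrays lay between the WT arrays. KO and WT arrays did not overlap, with KO higher, in 4 of the 5, and among all 7453 tested probe sets that share was 16.1%.

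Kif15, a spindle kinesin that also acts in growing axons, stood outside the named mitotic list. Its probe set 164299_f_at on U74Bv2 read 515.6 and 473.1 in KO, 259.1 and 253.0 in HET and 212.2 in WT. Both KO arrays were well above the others, a log2 difference of 1.05 ± 0.28 from WT (adjusted p = 0.159) and 0.94 ± 0.21 from HET and WT together (adjusted p = 0.0627). A second tested Kif15 probe set (115499_g_at) read 230.9 and 288.2 in KO, 129.1 and 188.0 in HET and 178.3 in WT, again highest in KO, at 0.43 ± 0.37 from WT. Other kinesins known for roles in cell division gave positive KO minus WT differences: 0.21 ± 0.30 for Kif4, 0.11 ± 0.32 for Kif14 and 0.43 ± 0.28 for Kif18b. None of these passed the test.

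Markers of proliferating cells were summed on U74Av2 as well. The summed signal of 13 such genes was 9745 and 9316 in KO, 7208 and 5865 in HET and 7580 and 6390 in WT, with both KO arrays above all others. All 14 tested probe sets of that list had a positive KO minus WT difference, with a median of 0.41, where 52.6% of all tested probe sets were positive. Of these, 0 were called and 3 had an unadjusted p under 0.05 (Mcm5, Birc5 and Mcm2), against a background of 0.255% and 5.11%. In KO against HET 0 were called and 7 had an unadjusted p under 0.05, against 0.188% and 5.25% of all. With the block 0 were called in either comparison, and in KO against HET and WT together only Mcm5 was (limma, adjusted p = 0.0396, against 0.350 without the block). The part of these markers in the kinesin values was not tested.

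Among the intermediate filaments, peripherin and the heavy neurofilament had the most negative KO minus WT differences. On U74Av2 7 probe sets of 5 genes were tested, 4 with negative and 3 with positive KO minus WT differences, at a median of -0.53, which was -0.93 without WT array 1 and -0.12 without WT array 2. In the fit without a block 0 were called in KO against WT, where the background over all 7453 tested probe sets was 0.255%. The arrays of one number deviated together on U74Av2, and a limma fit that took the number as a block called 3 of the 7 lower in KO than in WT, Nefh and both Prph probe sets. That fit called 1.74% of all probe sets.

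Prph encodes peripherin. Its probe set 104751_at read 2009.2 and 2857.8 in KO, 4563.1 and 6982.2 in HET and 3746.0 and 6947.3 in WT. Both KO arrays lay below every HET and WT array, while number 2 exceeded number 1 in each genotype. The KO minus WT log2 difference was -1.07 ± 0.37, 2.11-fold lower (limma, adjusted p = 0.757 without the block and 0.0151 with it). Against HET it was -1.22 ± 0.37 (adjusted p = 0.609 without the block and 0.00856 with it). The second Prph probe set (161482_f_at) read 4015.2 and 6026.6 in KO, 9047.9 and 10443.8 in HET and 7325.6 and 11129.6 in WT. The KO arrays again lay below the rest, at -0.87 ± 0.29 from WT (adjusted p = 0.744 without the block and 0.0363 with it). Against HET the block gave an adjusted p of 0.0229, where the fit without it gave 0.609.

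Nefh, the heavy neurofilament subunit that accumulates as axons mature, read 364.7 and 380.8 in KO, 550.7 and 807.2 in HET and 777.0 and 793.6 in WT. The KO arrays were the lowest and close to each other. The KO minus WT log2 difference was -0.98 ± 0.24, 1.98-fold lower (limma, adjusted p = 0.385 without the block and 0.0430 with it). Against HET it was -0.76 ± 0.24 (adjusted p = 0.690 without the block and 0.104 with it). With KO set against HET and WT together, the block gave adjusted p of 0.0300 for Nefh and 0.00462 and 0.0123 for the Prph probe sets, where the fit without it gave 0.291, 0.422 and 0.422. Over all 61 tested members that fit called 3, all lower, and over all probe sets it called 2.7%, while without the block 0 members and 0.416% of probe sets were called.

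Nefl, the light subunit, read 1764.6 and 1876.2 in KO, 2425.1 and 3055.8 in HET and 1982.1 and 3514.0 in WT on U74Av2. On U74Bv2 it read 10985.5 and 13361.9 in KO, 15533.4 and 14705.6 in HET and 14167.8 in WT. On both types the KO arrays lay below all others, with KO minus WT differences of -0.53 ± 0.30 and -0.22 ± 0.27, and neither passed the test. Nefm, the medium subunit, gave 0.26 ± 0.19 on U74Av2. On U74Bv2 it read 33546.6 and 23563.0 in KO, 26371.8 and 23540.1 in HET and 29186.0 in WT. The KO arrays lay on either side of the WT array and overlapped the HET arrays. Ina, alpha-internexin, an early neuronal filament protein, was read by 2 probe sets of relaxed design at differences of 0.21 ± 0.22 and 0.45 ± 0.22. The brighter one (94335_r_at) read 15403.5 and 13964.7 in KO, 13291.3 and 9927.1 in HET and 10178.6 and 11229.8 in WT, with both KO arrays highest. The summed sensory neuron markers, whose list includes the targeted gene Pou4f1, were lower in KO, as Prph and Nefh were. Of the tested probe sets of those markers, 3 of 11 on U74Av2 and 2 of 9 on U74Bv2 had positive KO minus WT differences. The part of these markers in the filament values was not tested.

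**Figure D2:**
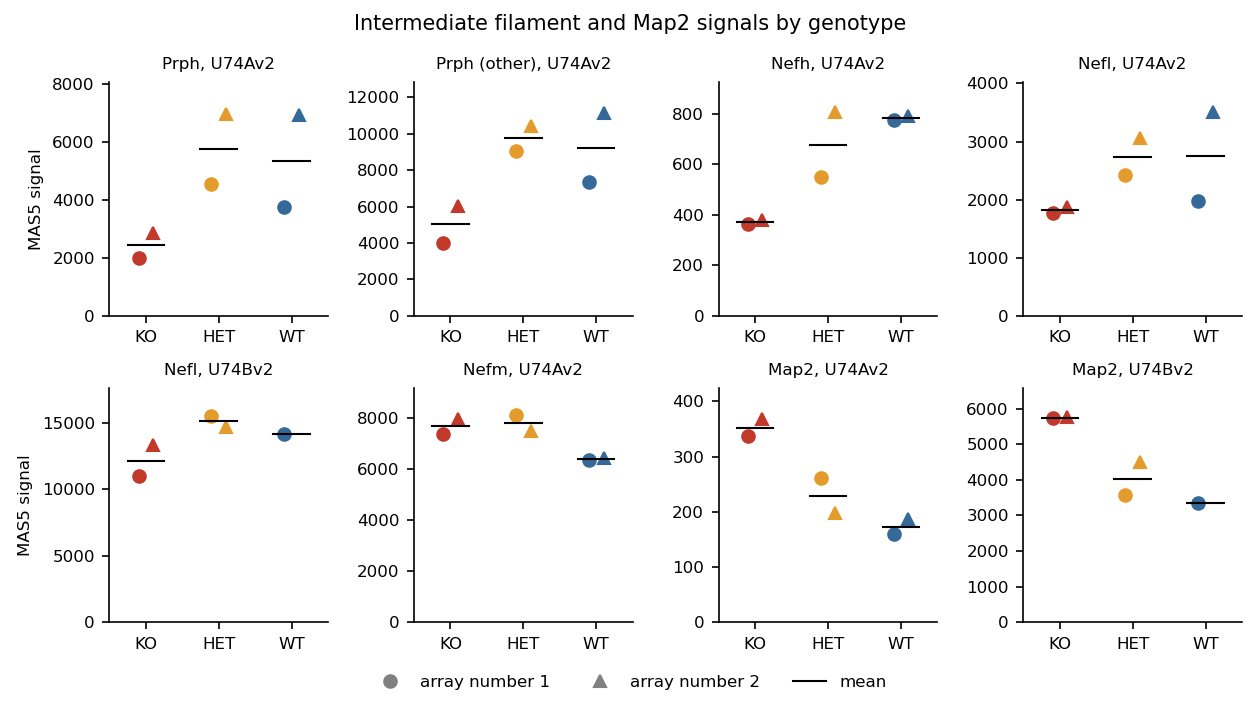
MAS5 signal (linear axis from 0) of peripherin, neurofilament and Map2 probe sets in KO, HET and WT ganglia; circles are number 1 arrays, triangles number 2 arrays and bars group means. KO arrays are the lowest for Prph, Nefh and Nefl, lie among the HET arrays and above the WT arrays for Nefm on U74Av2, and are the highest for Map2 on both array types.

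Of the structural microtubule-associated proteins, Map2 was higher in KO on both array types. MAP2 is best known from dendrites and the cell body. On U74Bv2 (114119_at) it read 5733.7 and 5756.5 in KO, 3562.5 and 4491.9 in HET and 3345.7 in WT. On U74Av2 (97760_at) it read 336.6 and 368.4 in KO, 260.6 and 198.0 in HET and 159.2 and 186.5 in WT. The KO arrays were the highest on both, and the HET arrays lay between KO and WT. The KO minus WT log2 difference was 0.77 ± 0.22 on U74Bv2 and 0.85 ± 0.25 on U74Av2 (limma, adjusted p = 0.210 and 0.613), with unadjusted p of 0.00762 and 0.0109. Against HET and WT together the differences were 0.64 ± 0.17 and 0.69 ± 0.22 (adjusted p = 0.118 and 0.521), so Map2 did not pass in the fit without a block. On U74Av2 it did not pass with the block either, with an adjusted p of 0.112.

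Mapt, which encodes tau of axonal microtubules, was read by 3 probe sets on U74Av2 with KO minus WT differences of 0.43 ± 0.20, 0.25 ± 0.19 and 0.05 ± 0.21. Its brightest (102431_at) read 13368.7 and 15434.1 in KO, 12440.5 and 12722.2 in HET and 9703.3 and 11718.4 in WT. The U74Bv2 probe set gave the other sign, -0.21 ± 0.25, with 6889.8 and 7064.3 in KO, 7456.1 and 9578.9 in HET and 8052.3 in WT. The brightest U74Av2 probe set had both KO arrays above all others, the array types gave opposite signs, and no Mapt probe set passed the test. Dcx, doublecortin of migrating and growing neurons, gave 0.38 ± 0.19, Map1b -0.29 ± 0.42 and Map1s -0.38 ± 0.25 on U74Av2. Map1a on U74Bv2 gave -0.30 ± 0.24 and -0.15 ± 0.30. Over the group, 0 of 7 tested probe sets on U74Av2 and 0 of 4 on U74Bv2 were called in KO against WT. The light chain 3 genes Map1lc3a and Map1lc3b lay between -0.15 ± 0.20 and -0.01 ± 0.22.

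Among the stathmins, Stmn1 had the largest KO minus WT difference. Stmn1, the stathmin of dividing cells and young neurons, read 36144.4 and 27446.1 in KO, 30806.7 and 20432.0 in HET and 20074.2 and 17646.4 in WT. The KO arrays lay above both WT arrays and overlapped the HET arrays, and number 1 exceeded number 2 in each genotype. The KO minus WT log2 difference was 0.74 ± 0.27 (unadjusted p = 0.0270, adjusted p = 0.803 without the block and 0.0635 with it). Stmn2, the growth cone stathmin SCG10, was close to level at 0.01 ± 0.20 and 0.08 ± 0.22, and Stmn3 at -0.15 ± 0.22 and -0.00 ± 0.25. The brighter Stmn2 probe set (95669_g_at) read 12727.3 and 11449.2 in KO, 14717.5 and 12751.2 in HET and 12905.4 and 11085.4 in WT. Its KO arrays overlapped the WT arrays and lay just below both HET arrays. In the other tested probe set (95670_at) the KO arrays also lay below HET and overlapped WT. Stmn4 gave 0.43 ± 0.32. Of 6 tested stathmin probe sets 0 were called.

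Gap43, a growth cone protein of extending axons, read 7432.6 and 6944.3 in KO, 9047.7 and 7972.4 in HET and 6547.0 and 8576.9 in WT. The KO arrays lay between the WT arrays (log2 difference -0.06 ± 0.22). The collapsin response mediator proteins, which relay guidance signals to microtubules, spanned -0.08 ± 0.23 (Dpysl3) to 0.43 ± 0.23 (Crmp1) on U74Av2 and -0.21 ± 0.27 (Dpysl5) to 0.08 ± 0.27 (Dpysl2) on U74Bv2. Crmp1 read 5596.4 and 6633.0 in KO, 4980.6 and 6167.1 in HET and 4007.9 and 5085.4 in WT, where both KO arrays lay above both WT arrays and overlapped HET. Of these probe sets 0 of 4 on U74Av2 and 0 of 3 on U74Bv2 were called.

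Alpha-tubulin signals differed between the array numbers as well as between genotypes. Tuba1a, the main alpha-tubulin of young neurons, read 105495.1 and 36862.1 in KO, 111478.6 and 29626.9 in HET and 37595.4 and 22610.2 in WT on probe set 100342_i_at. The number 1 arrays of KO and HET stood far above all others, and the KO and WT arrays overlapped. The KO minus WT log2 difference was 1.10 ± 0.70, made of 1.49 between the number 1 arrays and 0.70 between the number 2 arrays. It was not called, and its sign was not kept under every alternative processing. The family probe set 100343_f_at gave 0.66 ± 0.40, with 54994.4 and 33289.6 in KO, 60106.1 and 30691.5 in HET and 33119.7 and 22114.4 in WT. Tuba1c (101543_f_at) read 72751.6 and 35668.5 in KO, 72392.6 and 28870.5 in HET and 33957.3 and 20627.6 in WT. It was higher in KO than in WT within each number, by 1.10 and 0.79 on the log2 scale, and the difference of 0.94 ± 0.52 passed only with the block (limma, adjusted p = 1.00 without it and 0.0491 with it). Against HET, Tuba1c differed by 0.16 ± 0.52 (adjusted p = 0.766 with the block).

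These 3 probe sets carry the suffixes _i_at and _f_at, given to designs that can match related transcripts, so their values may pool several alpha-tubulins. Without probe sets of such suffixes the median KO minus WT difference of the alpha-tubulins was 0.14 over Tuba4a and Tuba8, where it was 0.66 over all 5. Under quantile normalization the median over all 5 was -0.06. The 18S controls, like Tuba1c, were higher on the number 1 array of each genotype. Both also had the same order of genotypes within each number, KO above HET above WT. The sizes differed. On the number 1 arrays Tuba1c was nearly equal in KO and HET, while the 18S signal was 12803 in KO and 6745 in HET. The summed signal of 5 red blood cell markers, at 59029 and 47954 in KO, 66693 and 44519 in HET and 45165 and 37556 in WT, was likewise higher on the number 1 arrays and above WT in KO within each number. Of the 6 tested probe sets of these markers, 3 had a positive KO minus WT difference and 2 a positive KO minus HET difference. The part of the 18S controls or of these markers in the tubulin values was not tested.

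The beta-tubulins were read by 10 tested probe sets on U74Av2 and 2 on U74Bv2. Tubb5, a widely expressed beta-tubulin, read 33972.1 and 26463.7 in KO, 36704.9 and 24072.9 in HET and 21520.0 and 19964.2 in WT on probe set 94788_f_at, and both KO arrays lay above both WT arrays (0.53 ± 0.26). A second U74Av2 probe set (94789_r_at) gave 0.42 ± 0.28, and on U74Bv2 Tubb5 (112383_at) gave 0.25 ± 0.27. Tubb3, the neuronal class III beta-tubulin, gave 0.36 ± 0.28 and 0.08 ± 0.22. Tubb4a gave -0.37 ± 0.33, Tubb2a 0.08 ± 0.19 and -0.18 ± 0.46, the probe set annotated Tubb2a-ps2 -0.50 ± 0.51, Tubb4b 0.13 ± 0.30 and Tubb6 0.02 ± 0.21. On U74Av2 7 of 10 beta-tubulin probe sets were positive in KO against WT and 1 of 10 in KO against HET, and 0 were called in either. Their median KO minus WT difference was 0.08. Without the 7 probe sets of relaxed design, which include all those of Tubb3 and Tubb5 on U74Av2, it was -0.37. That left only Tubb2a-ps2, Tubb4a and Tubb4b.

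**Figure D3:**
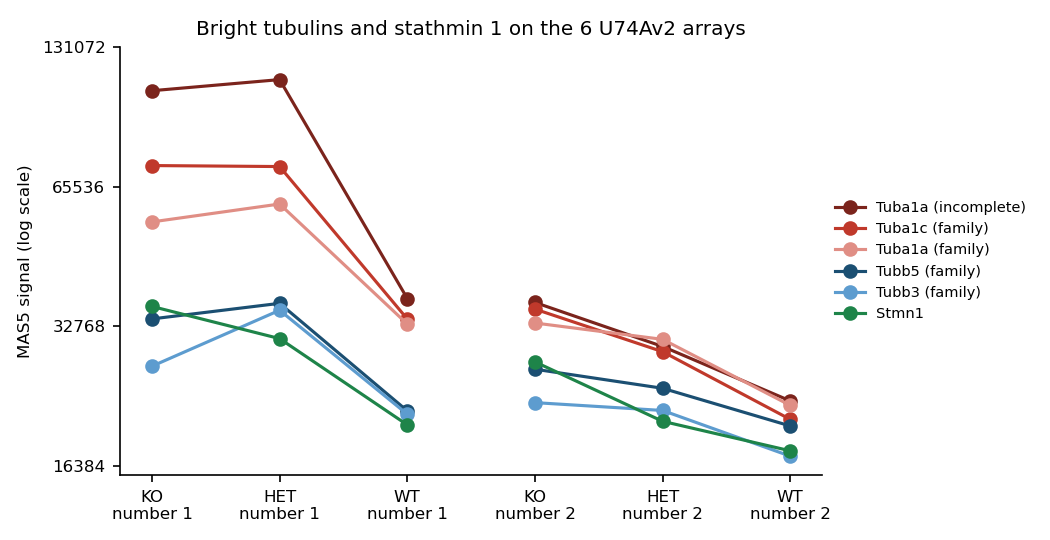
MAS5 signal (log axis) of 5 tubulin family probe sets and Stmn1 on the 6 U74Av2 arrays, with KO, HET and WT of number 1 on the left and of number 2 on the right; lines join arrays of the same number. The number 1 KO and HET arrays carry the highest alpha-tubulin signals, and within each number WT is the lowest for every probe set drawn.

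Taking all tested members together, KO against WT gave 36 positive and 25 negative differences on U74Av2, with a median of 0.08, and 15 positive and 21 negative on U74Bv2, with a median of -0.06. The medians over all probe sets were 0.02 on both. In that comparison 0 of 61 and 0 of 36 members were called, against 0.255% and 1.4% of all tested probe sets. At an unadjusted p under 0.05 there were 2 higher and 3 lower members on U74Av2 and 2 higher and 5 lower on U74Bv2, where the background in either direction was 5.11% and 11.2%. In KO against HET, 0 members were called on either type (0.188% and 1.71% of all), with medians of -0.07 on both. At an unadjusted p under 0.05 that comparison had 0 higher and 3 lower on U74Av2 and 2 higher and 5 lower on U74Bv2, against 5.25% and 9.67% of all probe sets in either direction. Against HET and WT together it gave 1 higher and 4 lower on U74Av2 and 2 higher and 6 lower on U74Bv2, against 6.52% and 11.9% of all. With the block, KO against WT on U74Av2 called 1 member higher and 3 lower and KO against HET called 2 lower, with 1.74% and 1.73% of all probe sets called.

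**Figure D4:**
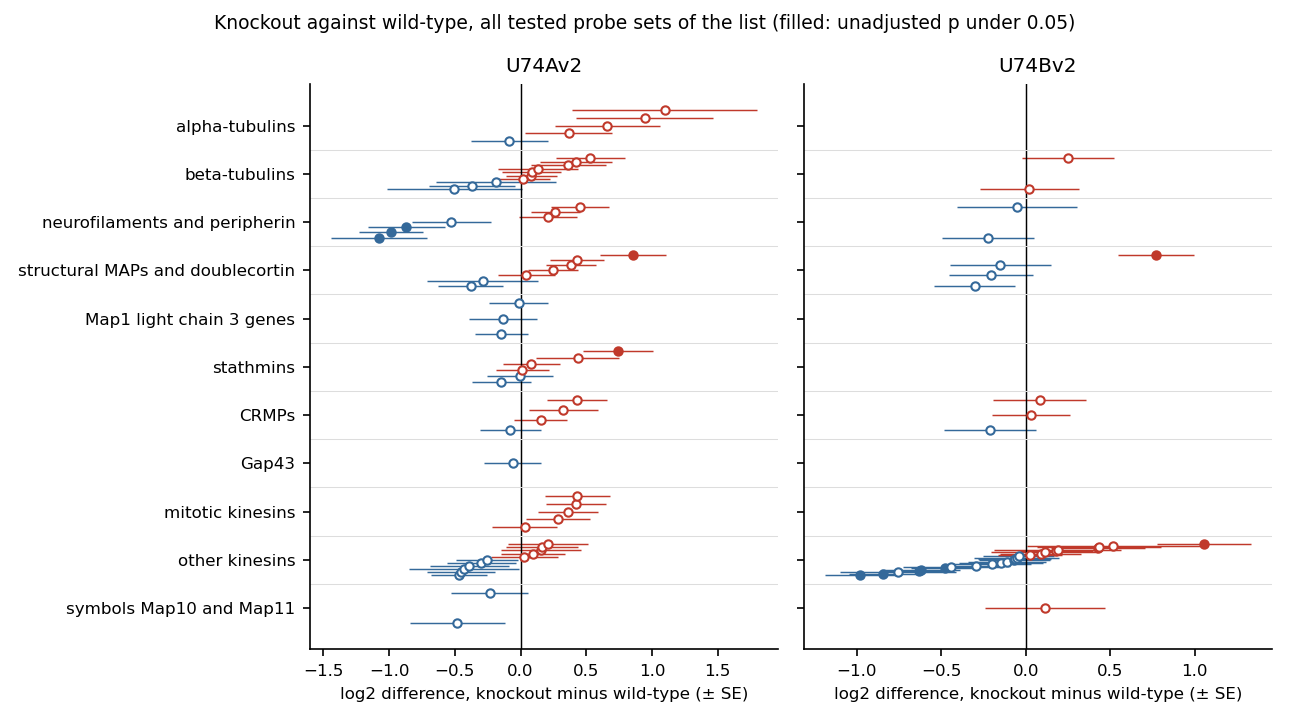
KO minus WT log2 difference with its standard error for every tested member, by role and array type; red is above 0, blue below 0, and filled points have an unadjusted p under 0.05. Neurofilaments and peripherin spread to the left and alpha-tubulins to the right on U74Av2, all 5 mitotic kinesins lie right of 0, and the other kinesins on U74Bv2 reach from -0.98 to 1.05.

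HET and WT ganglia were compared in the same fit. No member passed on either type: 0 of 61 on U74Av2 and 0 of 36 on U74Bv2 were called, and so were 0.0% of all probe sets. At an unadjusted p under 0.05 there were 0 members on U74Av2 and 1 on U74Bv2, where the background was 0.698% and 3.8% of all probe sets. That one was Map1a (116100_f_at), with 2861.8 and 2130.6 in HET and 3748.3 in WT (log2 difference -0.59, unadjusted p = 0.0366). Tuba1a and Tuba1c gave the 2 largest HET minus WT differences on U74Av2, 0.98 and 0.79, with the number 1 HET array far above both WT arrays. Pou4f1 in HET overlapped the single WT array.

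Other genes of the microtubule pathway were counted from 5 lists: dynein and dynactin, kinesin light chains and adaptors, other microtubule binding and severing proteins, tubulin folding and modification, and further growth cone proteins. In KO against WT 0 were called in any list on either array type in the fit without a block, which called 0.255% of all probe sets on U74Av2 and 1.4% on U74Bv2. At an unadjusted p under 0.05 on U74Av2 there was 1, lower, among the 16 tested probe sets of the binding and severing list. On U74Bv2 there were 2, higher, among 13 of the dynein list and 1, higher, among 7 of the growth cone list. Over all probe sets that share was 5.11% on U74Av2 and 11.2% on U74Bv2.

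Map7, which recruits kinesin-1 to microtubules, was that U74Av2 probe set, at 299.1 and 256.8 in KO, 615.3 and 691.4 in HET and 516.9 and 645.8 in WT. Its KO arrays lay far below all others. The log2 difference was -0.94 ± 0.23 from WT (limma, adjusted p = 0.368 without the block and 0.0508 with it) and -1.10 ± 0.23 from HET (0.215 without the block and 0.0294 with it). From HET and WT together the adjusted p was 0.131 without the block and 0.0173 with it. Dynlrb1, a dynein light chain, passed against HET only with the block, at 1.00 ± 0.37 (limma, adjusted p = 0.869 without it and 0.0225 with it). Stx1a, a vesicle fusion protein, gave -0.47 ± 0.22 and Dctn1, the large dynactin subunit, -0.47 ± 0.25 from WT. On U74Bv2, Dync1li1, a dynein light intermediate chain, gave 1.05 ± 0.25 from WT, with 5922.0 and 4219.9 in KO, 6539.0 and 5809.4 in HET and 2382.3 in WT. The single WT array lay below all others, and KO minus HET was -0.30 ± 0.21. Basp1, a growth cone protein, gave 0.65 ± 0.23 on U74Bv2 and 0.66 ± 0.36 on U74Av2, and Dctn4 gave 0.52 ± 0.22.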

How the data were processed

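The deposited values were MAS5 signal intensities on a linear scale, 1 per probe set and array, made by the authors per the submitters' processing notes. No source used here names the MAS5 version or the scaling target. The 2%-trimmed mean signal was 500.259 to 500.291 on the 6 U74Av2 arrays and 497.611 to 498.381 on the 5 U74Bv2 arrays, and the signals were not scaled again. The detection calls were not used.

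The 66 control probe sets of U74Av2 were left out. A pseudocount of 0.1 of the mean trimmed mean was added before log2 (50.0269 and 49.8144), and probe sets at or below the 40th percentile of mean log2 signal were left out, at a signal of 124.469 and 172.207. That left 7453 of 12488 probe sets on U74Av2 and 7446 of 12411 on U74Bv2. Each array type was fitted with limma 3.58.1 in R 4.3.3, with genotype as a factor of 3 levels, an intensity trend, two-sided tests and Benjamini-Hochberg adjustment. The fit was tested on simulated data. On U74Bv2 the single WT array was assumed to vary like the other groups. No label says that the pools of a genotype came from separate litters, and the p-values thus reflect only how these arrays spread, which may be technical.

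Arrays with the same number deviated together on U74Av2, with correlations of their deviations from the group means of 0.533 (KO with HET), 0.619 (KO with WT) and 0.571 (HET with WT), so on U74Av2 the fit with the number as a block is given beside results whose call it changed. On U74Bv2 it is given with the alternatives. The labels do not say what the number marks.

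Symbols came from the platform annotation. On U74Av2 10855 probe sets had 1 symbol, 396 several and 1237 none, and on U74Bv2 the counts were 10581, 178 and 1652. Through Entrez identifiers 10839 and 10550 of them matched RefSeq genes (GRCm38.p6), which changed 0 symbols. Promoters came from the RefSeq table of the same build. Figures were drawn with matplotlib 3.10.9 in Python 3.11.15.

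Named with values were members called, members with an unadjusted p under 0.01 in a KO comparison, the largest, smallest and brightest of each role group, and genes whose probe sets differed in sign by over 0.5, and from the other pathway lists the called or 3 top members. Further members were added for their role. The members and lists were chosen with earlier results of these data known. Alternatives were a pseudocount of 0.02 of the trimmed mean, no filter, quantile normalization, no intensity trend, the block, each array left out in turn, probe sets of relaxed design left out and, added after seeing the data, 1 value per gene.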

Additional observations from a re-analysis of the deposited data

Results flagged for a closer look

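Of the members, 10 on U74Av2 and 17 on U74Bv2 were too dim to enter the tests. Some of these had both KO arrays above every other array of their type. The search was for that direction only, and its share among all dim probe sets was not counted. In the other direction, Kif3a (161275_at) on U74Av2 read 70.5 and 69.3 in KO, 105.1 and 76.9 in HET and 132.1 and 82.1 in WT. On U74Av2 the lowest KO signal exceeded the highest HET or WT signal by 1.78 times for Kif20a (160501_at), at 100.9 and 132.3 in KO, 56.7 and 39.5 in HET and 51.4 and 49.1 in WT. For Stmn2 (95668_at) the ratio was 1.14, with 127.6 and 174.9 in KO, 71.0 and 24.0 in HET and 111.8 and 103.1 in WT. The ratio was 2.73 for Tuba1a on U74Bv2 (164890_r_at), at 169.3 and 334.8 in KO, 51.7 and 40.4 in HET and 62.0 in WT. Without the filter its log2 difference from HET and WT together was 1.49 ± 0.35 (limma, adjusted p = 0.169). For Tubb5 (164451_i_at) the ratio was 1.2, with 109.1 and 114.6 in KO, 78.6 and 89.0 in HET and 91.0 in WT. Kif13a (109305_at) had a ratio of 1.22, with 79.5 and 167.0 in KO, 41.2 and 65.4 in HET and 41.3 in WT. For a dim Kif15 probe set (115498_at) the ratio was 1.66, with 178.3 and 213.9 in KO, 107.4 and 73.9 in HET and 72.6 in WT. None of these passed the test of KO against WT, or against HET and WT together, without the filter.

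The 18S control probe sets of U74Av2, left out of the tests, had a mean signal 2.48 times as high in KO as in WT on the number 1 arrays and 1.9 times as high on the number 2 arrays. No explanation of these values was tested.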

How the results depend on the processing

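With 2 arrays a genotype, or 1, only large differences can pass, and the calls depended on the processing; the cause was not tested. With the replicate block on U74Av2, probe sets called came to 130 in KO against WT (19 without it), 129 in KO against HET (14) and 201 in KO against HET and WT together (31), with 4, 2 and 3 members called where there were 0 without it. On U74Bv2 the numbers gave a single pair of deviations (correlation 0.103), so arrays share only a number there; the block gave 216 (104 without it), 317 (127) and 369 (190), with 2, 3 and 6 members called (0, 0 and 2 without it), and 7 in HET against WT (0). Apart from the members named beside it, the block changed no call among the members tested on U74Av2. On U74Bv2, without the filter on dim probe sets the counts were 21, 54 and 101, with 0 members in KO against both, and without the intensity trend 40, 81 and 109, also with 0 members. Quantile normalization called 1 member in KO against WT and 2 in KO against HET there. Leaving out each array in turn gave, on U74Av2, 0 to 15 probe sets in KO against WT, 0 to 11 in KO against HET and 2 to 20 in KO against both, with 0 members; on U74Bv2, where a lone array was assumed to vary like the other groups, it gave 124 to 162, 110 to 157, 182 to 267 and, in HET against WT, 0 to 3. Members then numbered 0 to 1 in KO against WT and 0 to 3 in KO against both, with 0 without KO array 2, 1 without KO array 1 and 3 without either HET array. On U74Bv2 Map2 (limma, adjusted p = 0.0141), Kif13b (0.0193), Kif15 (0.0243) and Kif5a (0.0328) passed against both only with the block, except that Map2 also passed without HET array 2 (0.0495); with the block Kif5a passed against HET (0.0170), and Kif21a and Kif21b passed against WT (0.0106 and 0.0252) and HET (0.00314 and 0.00533). Over 184 named values and 1891 recomputed ones, 23 came to pass, 7 no longer passed and 0 called values turned sign, while 133 that were not called did. The largest difference of the main fit that turned sign was 1.096, of Tuba1a (100342_i_at) in KO against WT.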
